A study of Rattus norvegicus with 4 samples.

Results

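Genes that mark or specify macrophages, 9 in all, were followed in rat alveolar macrophages exposed to carbon nanotubes. They are 4 transcription factors (Spi1, Cebpa, Cebpb and Irf8), the growth factor receptor Csf1r and the macrophage markers Cd68, Lyz2, Aif1 and Adgre1, chosen by name and matched to array probes through their RefSeq accessions. All 9 had a probe, out of 16581 genes that could be named on the array, and 14 probes stood for them. The cells were NR8383, a line first grown from the lavaged lung of a normal rat, at 20 passages. They had been exposed for 4 h to the pristine single-walled carbon nanotube NRCWE055 at 11 cm2 of nanotube per cm2 of culture. The 4 samples form 1 exposed group of biological replicates in the study's design, each hybridised to 1 Agilent array with Cy3-labelled cRNA. Unexposed cells are part of the design but not analysed here, and the values describe exposed cells without showing what the exposure changed. All samples come from 1 cell line, which limits what they say of macrophages in the lung. In bulk RNA, fewer cells of a kind and less RNA per cell cannot be told apart.

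Macrophages descend from blood-forming progenitors under a small set of transcription factors. Spi1 encodes PU.1, an ETS-family factor that binds purine-rich sites around GGAA and is required for the myeloid lineage. Cebpa and Cebpb encode related leucine-zipper factors, the former best known from granulocyte and monocyte progenitors and the latter from mature macrophages. Irf8 encodes an interferon regulatory factor that binds DNA together with PU.1 at composite ETS and IRF sites. Among the genes that these factors are known to regulate is Csf1r, whose product binds the colony-stimulating factor CSF1 and interleukin 34 and supports macrophage survival.

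Upstream sequence was examined because the members include both a pair of factors that act together on DNA and genes that they are known to regulate. RefSeq promoter windows of assembly GRCr8 were matched for 7 of the 9 members, all but Spi1 and Aif1, and the 250 bases before each start were searched on both strands. The PU.1 core GAGGAA lay in 4 of the 7 windows (Csf1r, Cd68, Lyz2 and Adgre1), against 23.3% of 33469 promoters. The composite ETS and IRF motif, GGAA followed after any 2 bases by GAAA, lay in 1 of the 7, that of Cd68, against 2.48% of promoters. It spans bases -33 to -24 before the start on the minus strand of the promoter and overlaps a GAGGAA match at -27 to -22. The TATA motif TATAAA lay in the windows of Cebpa, Cebpb and Irf8, against 12.9% of promoters. Those of Cebpb and Cebpa are printed beside that of Cd68 because these related genes gave opposite results on the arrays. The windows are chr10:54882442-54882691 on the minus strand for Cd68, chr3:176816755-176817004 on the plus strand for Cebpb and chr1:96896334-96896583 on the plus strand for Cebpa, all in GRCr8. Capitals mark the overlapping composite and PU.1 matches in Cd68 and the TATA motif in Cebpb and Cebpa.
Cd68: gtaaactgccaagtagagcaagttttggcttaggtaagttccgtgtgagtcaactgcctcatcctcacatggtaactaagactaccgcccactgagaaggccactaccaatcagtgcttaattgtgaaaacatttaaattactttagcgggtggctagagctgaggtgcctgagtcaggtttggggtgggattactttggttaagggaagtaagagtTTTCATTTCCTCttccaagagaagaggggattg
Cebpb: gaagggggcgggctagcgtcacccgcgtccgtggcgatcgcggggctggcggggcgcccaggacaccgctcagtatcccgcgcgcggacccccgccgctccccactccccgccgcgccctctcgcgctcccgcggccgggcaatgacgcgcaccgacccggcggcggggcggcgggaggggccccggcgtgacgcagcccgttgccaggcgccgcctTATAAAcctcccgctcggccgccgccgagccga
Cebpa: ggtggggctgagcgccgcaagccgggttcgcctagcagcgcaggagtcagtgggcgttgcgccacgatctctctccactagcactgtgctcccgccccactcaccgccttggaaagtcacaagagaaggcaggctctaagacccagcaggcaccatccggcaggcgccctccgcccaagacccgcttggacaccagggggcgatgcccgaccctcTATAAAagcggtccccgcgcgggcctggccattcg

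Of 4 C/EBP and CCAAT-box patterns also searched, TTNNGNAA lay in 4 member windows against 37.2% of promoters, TTGCNNAA in 2 against 9.22%, CCAAT in 3 against 34.0%, and ATTG followed after any 3 bases by AAT in 0 against 2.62%. The motifs were chosen with these sequences in view. A match describes the letters only, and Adgre1, which holds GAGGAA, was not well above background on the arrays, as described below.

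Detection on every array, with a signal well above background, was reached by 7 of the 9 members, a share of 77.8% against 52.4% of all named genes. Genes with several probes were detected more often, in 65.3% of cases against 48.8% for genes with 1 probe. Of the 5 members with 1 probe 4 were detected, and of the 4 members with several probes 3 were. Both shares lay above those of the corresponding genes, but 9 genes chosen for their known role in these cells give no test of that difference. By role, 3 of 4 transcription factors and 4 of 5 receptors and markers were detected. Cebpa and Adgre1 were well above background on no array. By probe, 11 of 14 were detected on all arrays, against 51.2% of all named probes, and none of the 14 was saturated.

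Levels below are log2 of the processed signal relative to the array's 75th percentile over detected probes, with the SD over 4 arrays. The 75th percentile itself was 1756, 2631, 2861 and 1873 units of processed signal on replicates 1 to 4, so signals before scaling were brighter on replicates 2 and 3. The lowest detected probe had a signal of 15.6 to 15.9 units. Levels of different probes depend on the probe and are not compared with one another.

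**Figure D1:**
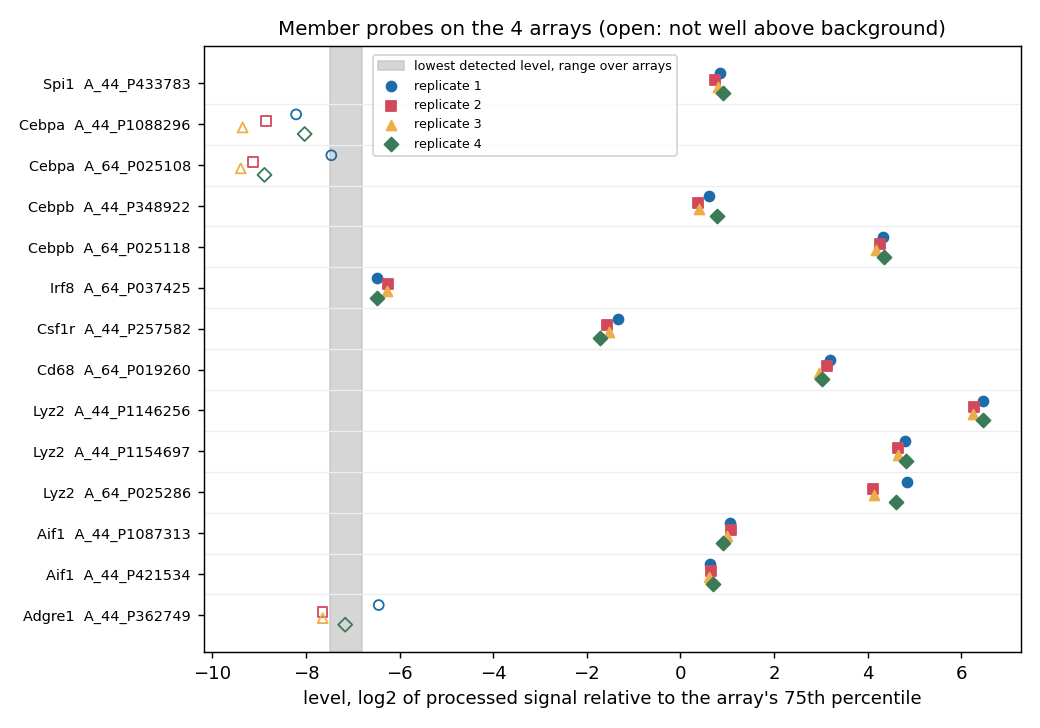
Level of each of the 14 member probes (rows) on the 4 arrays, as log2 of processed signal relative to the array's 75th percentile. Filled symbols are probes well above background on all arrays and open symbols those on none; the grey band spans the lowest detected level of the arrays, -7.49 to -6.81. The Irf8 probe, between -6.49 and -6.25, lies just right of the band, and the remaining detected probes lie far from it.

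Spi1, the master regulator of the group, was measured by 1 probe with processed signals of 3140, 4360, 4967 and 3494 units on replicates 1 to 4. After scaling these were 0.84, 0.73, 0.80 and 0.90, a mean of 0.82 ± 0.07 (SD, n = 4). The span over the arrays was 0.66 on the log2 scale before scaling and 0.17 after it. Its relative Spib, a B cell and plasmacytoid cell factor, was well above background on no array, and no probe was matched to Spic.

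The C/EBP pair differed in whether it could be measured at all. One Cebpa probe gave 5.92, 5.72, 4.37 and 7.17 units and the other gave 9.98, 4.68, 4.25 and 3.95. Every one of these lay below the lowest detected signal of its array, and the median of 308 negative control spots per array was 3.64 to 4.16 units. The first Cebpa probe exceeded 96.75%, 96.75%, 64.0% and 98.05% of the negative control spots on replicates 1 to 4. The other exceeded 98.4%, 91.6%, 55.5% and 65.3%. Only on replicate 3 did both lie near the middle of the negative controls. With the looser detection flag, which asks only for a positive and significant signal, a Cebpa probe passed on 3 arrays.

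Cebpb was measured by a pair of probes, both detected on every array. The probe printed 10 times, A_64_P025118, gave a geometric mean of 35013, 50272, 51914 and 38404 units, and its levels of 4.32, 4.26, 4.18 and 4.36 spanned 0.18. The probe printed once, A_44_P348922, gave 2692, 3405, 3771 and 3202 units, and its levels of 0.62, 0.37, 0.40 and 0.77 spanned 0.40. The probes lay 3.74 apart on the log2 scale although they name the same gene, so the mean gene level of 2.41 ± 0.13 (SD, n = 4) depends on the pair. Both were higher on replicates 1 and 4 than on replicates 2 and 3, but with quantile normalization the probe printed 10 times no longer showed this order. The other listed C/EBP genes, Cebpd, Cebpe and Cebpg, were each detected on all 4 arrays, at 0.88 ± 0.09, -1.01 ± 0.12 and 0.59 ± 0.04 (SD, n = 4). Of the 5 C/EBP genes listed here, only Cebpa was not detected.

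Irf8 was detected at the edge of what the arrays could measure. Its single probe gave 19.6, 34.7, 37.0 and 20.8 units, which is 1.26, 2.23, 2.32 and 1.32 times the lowest detected signal of the same array. It exceeded between 99.0% and 100% of the negative control spots. The scaled levels were -6.48, -6.25, -6.27 and -6.49, so replicates 1 and 4 lay below replicates 2 and 3. With normexp background correction on median signals this order turned around, to -4.31, -4.63, -4.73 and -4.39, so no order of the arrays can be read for Irf8. Among the related IRF genes, Irf5, a factor of inflammatory macrophage activation, was at 1.68 ± 0.06, and Irf4, the nearest relative of Irf8, at -4.01 ± 0.16 (SD, n = 4). The Irf4 level averages discordant probes, A_44_P1082588 at 574 to 1065 units and A_44_P342426 at 21.1 to 38.0 units, and depends on both.

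Csf1r was measured by 1 probe with signals of 698, 888, 994 and 565 units. Its levels of -1.33, -1.57, -1.52 and -1.73 gave a mean of -1.54 ± 0.16 (SD, n = 4) and spanned 0.40, the widest span of the detected members at the level of genes. The widest was instead that of Irf8, 0.42, with normexp correction, that of Adgre1 with the looser flag, and that of Lyz2 without replicate 1 or without replicate 4 (0.29 and 0.36). Replicate 1 was highest and replicate 4 lowest under each of the 4 scalings tried and with normexp correction. Both genes of its ligands were below detection. The pair of Csf1 probes gave 3.17 to 7.49 units and the Il34 probe, printed 10 times, 7.25 to 13.9 units, and neither gene was well above background on any array. With the looser flag Il34 passed on 4 arrays and Csf1 on 1. Of the receptor kinases related to Csf1r, Pdgfra and Pdgfrb were detected on no array and Kit, the receptor of mast cells and progenitors, on 1, where 1 of its 2 probes read 19.5 units on replicate 4 against 3.46 to 4.10 on the others.

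Among the markers, Cd68, a lysosomal membrane glycoprotein of the LAMP family, gave 15973, 23091, 22223 and 15172 units from 1 probe. Its levels of 3.19, 3.13, 2.96 and 3.02 spanned 0.23. The general LAMP genes Lamp1 and Lamp2 were detected on all arrays, and Lamp3 and Lamp5, which are known from dendritic cells and neurons, on none. Aif1, which encodes the calcium-binding, actin-bundling protein IBA1, had the smallest SD of the detected members. Its gene levels were 0.84, 0.87, 0.81 and 0.80, a mean of 0.83 ± 0.03 (SD, n = 4), and 4.67% of the 8685 genes with a level had a smaller SD. With the 75th percentile taken over all probes its SD was 0.051 against 0.049 for Spi1, and with the brightest probe 0.073 against 0.072, so its rank was not kept there. The Aif1 probes lay 0.36 apart, and Aif1l, its close relative, was detected on no array.

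Adgre1 encodes the adhesion G protein-coupled receptor known in mice as F4/80. Its probe gave 20.1, 13.1, 14.3 and 13.1 units and was well above background on no array, although it exceeded 98.7% to 99.4% of the negative control spots and passed the looser flag on all 4. On replicate 1 its processed signal was 1.29 times the lowest detected signal of the array, against 0.827 to 0.898 times on the others, and before the correction for uneven brightness across the array the background-subtracted signal there was 17.1 units. The related Adgre5, which encodes the broadly expressed leukocyte receptor CD97, was at -2.49 ± 0.13 (SD, n = 4), and Adgre4 was detected on no array.

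Lyz2, the gene of the secreted lysozyme of macrophages, had 3 detected probes whose signals before scaling did not vary alike between arrays. Probe A_44_P1146256 gave 155466, 202870, 217418 and 166304 units and probe A_44_P1154697 gave 49072, 65506, 71923 and 52863 units, both brighter on replicates 2 and 3 as the arrays were. Probe A_64_P025286 gave 50111, 45858, 50476 and 45522 units. Its signal before scaling spanned 0.15 on the log2 scale, whereas the 75th percentile of the arrays spanned 0.70 and the other 10 detected member probes 0.48 to 0.91. After scaling, the levels of A_64_P025286 were 4.84, 4.12, 4.14 and 4.60, so it was higher on replicates 1 and 4 without overlap. The same order held for A_44_P1146256 and A_44_P1154697, with means 0.21 and 0.17 apart, against 0.59 for A_64_P025286. With quantile normalization A_44_P1146256 and A_44_P1154697 did not show it. The gene level, 5.17 ± 0.19 (SD, n = 4), had the largest SD of the 7 detected members, and 83.8% of genes had a smaller one; with quantile normalization or normexp correction Irf8 had the largest, and Csf1r with the brightest probe or without replicate 2 or 3. With quantile normalization the gene levels were 5.21, 5.10, 5.19 and 5.22.

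**Figure D2:**
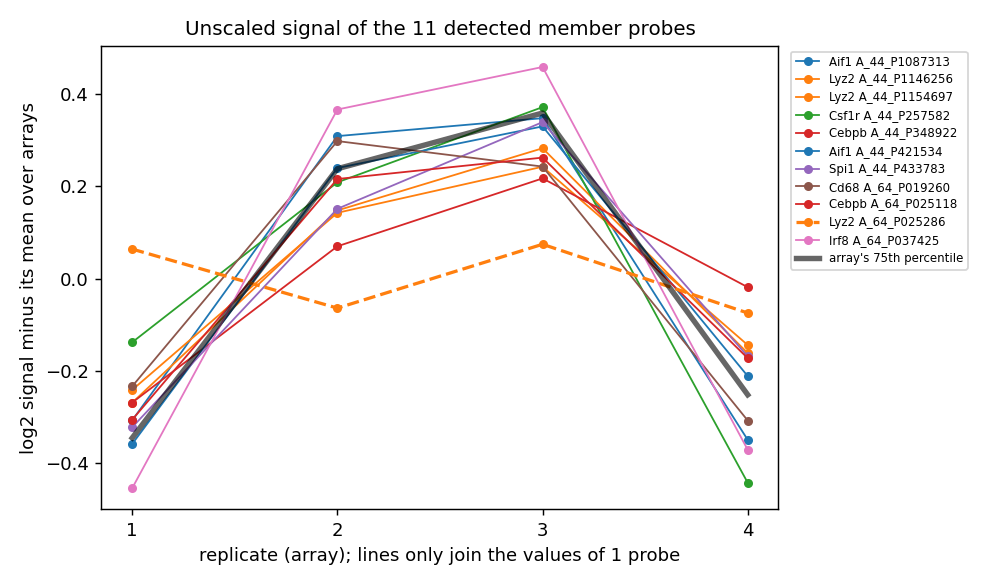
Processed signal of the 11 detected member probes before scaling, as log2 minus the probe's own mean over the 4 arrays, with the 75th percentile of the arrays as a thick line. Most probes follow the arrays' brightness, and the dashed Lyz2 probe A_64_P025286 stays within 0.15.

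On each array 5 member probes were printed several times, which allowed differences between arrays to be set against the noise of replicate spots. The moderated F test of limma was fitted over all 1742 such detected probes with Benjamini-Hochberg adjustment. It compares arrays, and with 1 array per culture it does not part the culture from labelling or scaling. Of the 5 probes, 3 passed an adjusted p of 0.05, against 42.8% of all these probes. The 3 were the probes printed 10 times, of which 65.7% passed over the whole array, and the 2 printed 2 times did not pass, where 9.09% of such probes passed overall. The count of members is thus near the background and follows the number of spots. With the position of the spot as a further term, a choice made after the data were seen, 4 of the 5 passed, against 67.9% of all such probes.

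Lyz2 probe A_64_P025286 had the largest difference, 0.71 between its highest and lowest array (limma adjusted p = 8.02e-07), and 3.95% of all probes printed 10 times exceeded a difference of 0.5. Without replicate 1 the difference was 0.47 (limma adjusted p = 0.00154). Each of its 10 spots had a higher scaled level on replicate 1 than on replicates 2, 3 and 4. Before scaling, its signal was 50111, 45858, 50476 and 45522 units on replicates 1 to 4. That signal spanned 0.15 on the log2 scale, against 0.70 for the 75th percentile of the arrays. Lyz2 probe A_44_P1146256 differed by 0.22 (limma adjusted p = 9.86e-06). In 10 of 10 spots its scaled level was higher on replicate 1 than on replicates 2 and 3. Before scaling, the signal of this probe was lower on replicate 1, at 155466 units against 202870 and 217418. All spots of an array share 1 scaling value, so such counts of spots depend on it. With quantile normalization the order of A_44_P1146256 turned around, to 6.21, 6.44, 6.57 and 6.35 on replicates 1 to 4. With normexp correction its difference was 0.24 with a limma adjusted p of 0.0537. The third Lyz2 probe, A_44_P1154697, differed by 0.18 (limma adjusted p = 0.0595). A_64_P025286 kept its order of scaled levels, with replicates 1 and 4 above 2 and 3, under every scaling and with normexp correction. Its signal before scaling did not have that order. Each of these settings adjusts for the same brightness of the arrays, so they are not independent checks of the order.

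Cebpb probe A_64_P025118 differed by 0.18 (limma adjusted p = 0.000171). In 10 of 10 spots its scaled level was higher on replicate 4 than on replicates 2 and 3. Before scaling, its signal was lower on replicate 4, at 38404 units against 50272 and 51914. With quantile normalization the difference was 0.079 (limma adjusted p = 0.149), and with normexp correction it was 0.15 (limma adjusted p = 0.563). Without replicate 3 it was 0.11 (limma adjusted p = 0.0496). Aif1 probe A_44_P1087313 differed by 0.17, less than its pair of spots differed within an array (limma adjusted p = 0.938). With spot position as a term, its limma adjusted p was 0.0889.

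**Figure D3:**
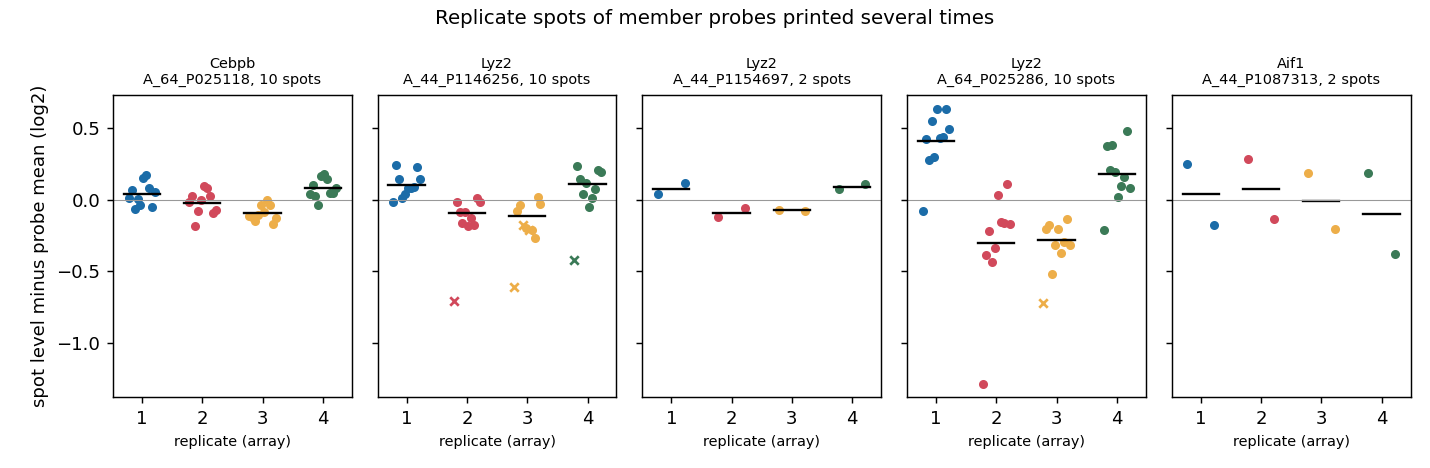
Level of each replicate spot of the 5 member probes printed several times, as log2 minus the probe's mean over the arrays, by replicate. Dots are spots that were used, crosses spots marked as outliers, and black bars the mean of the used spots. The spots of Lyz2 probe A_64_P025286 shift by 0.71 between arrays, against 0.17 to 0.22 for the other 4 probes.

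The spread of the detected members was taken between arrays, so it holds labelling and scaling as well as the cultures. The median SD of the 7 was 0.13, against 0.0926 over all 8685 genes with a level, and 5 of the 7 lay above that median. None of the 7 spanned over 2-fold, as did 1.11% of all genes. With quantile normalization the corresponding medians were 0.0963 and 0.0930, and with the brightest probe of each gene 0.104 and 0.0928. The gap between members and all genes was smaller in both of these settings. With no filter on dim probes, where all 9 members and all named genes enter, the order turned, with 0.13 for members and 0.24 for all genes.

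Other genes of the same biology were read from lists of known regulators and markers. Of 28 measured myeloid regulators outside the 9, 23 (82.1%) were detected on all arrays, among them Runx1 and Klf4, and Klf2, Maf, Gfi1 and Bach2 were detected on none. Of 26 measured macrophage markers, 20 (76.9%) were detected, among them Ptprc, Itgam, Cd14, Mrc1 and Mertk. The 6 not detected were Cd163, Marco, Ccr2 and the complement genes C1qa, C1qb and C1qc. Of 26 other measured genes in the protein families of the members, 13 (50.0%) were detected, close to the 52.4% of all named genes.

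Markers of other cell types gave 12 of 48 measured genes (25.0%) detected on all arrays and 5 more on some. None of 6 lung epithelial genes and none of 6 fibroblast genes was detected on all arrays. The detected ones were S100a8 and Camp of neutrophils, Pax5 and Ebf1 of B cells, Cd3d and Lck of T cells, Gata2 and Hdc of mast cells, Batf3 of dendritic cells, and Cdh5, Vwf and Pecam1 of endothelium. By list this was 3 of 6 endothelial genes, 2 of 4 B cell genes, 2 of 6 T cell genes, 2 of 6 mast cell genes, 2 of 9 neutrophil genes and 1 of 5 dendritic cell genes. These lists overlap with the sets above, since Batf3 was also counted among the myeloid regulators, and Kit, Pdgfra and Pdgfrb among the family genes. Other genes of these lists were below detection on every array, among them S100a9 and Elane of neutrophils, Cd79b of B cells, Cd3e and Cd8a of T cells, Cpa3 of mast cells, Clec9a and Xcr1 of dendritic cells, and Tek and Tie1 of endothelium. Gata2, at -6.65 ± 0.43 (SD, n = 4), lay near the lowest detected levels of the arrays, -7.49 to -6.81. All samples are of 1 cell line, NR8383, and the relation of these genes to the levels of the members was not tested.

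**Figure D4:**
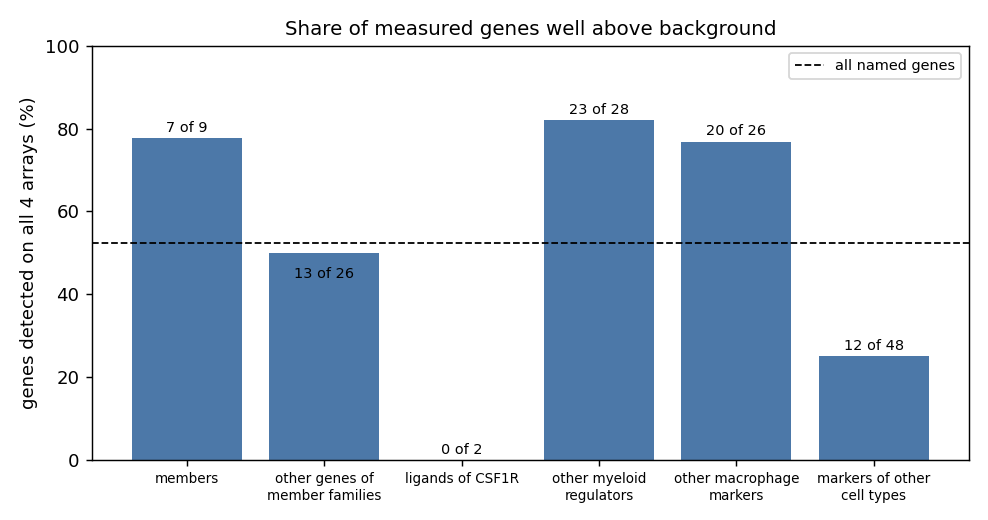
Share of measured genes well above background on all 4 arrays, in percent, for the members and 5 related sets, with the count above or in each bar. The dashed line is the 52.4% of all named genes. The members, the other regulators and the other macrophage markers lie above it, and markers of other cell types, at 25.0%, below. The sets overlap in a few genes.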

How the data were processed

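The 4 arrays were 1-colour, from 1 slide and 1 scan. Titles gave the group, while replicates 2 to 4 have source names with other nanotube numbers. Per the submitters' processing notes, Agilent Feature Extraction 11.0.1.1 made the files. The processed signal is an intensity from which, per the file headers, background was subtracted before a correction for uneven brightness across the array. Raw median signals and flags of 0 or 1 for detection and outliers were deposited beside it. Outlier spots (427 to 714 of 58717 per array) were dropped, log2 signals averaged per probe, and each array scaled by its 75th percentile over probes detected on all arrays. A probe was detected when over 0.5 of its spots were well above background (40.8% to 43.7% of 45598 probes), and a gene when any of its probes was. Detected probes of a gene were averaged. On all arrays 8687 genes were detected, of which 8685 had at least 1 probe that was itself detected on every array. Accessions were named through RefSeq tables of GRCr8, for 21109 probes; the array was designed on another build. Arrays were compared with limma 3.58.1 in R 4.3.3, checked on simulated data; p-values measure the spread of spots, and the 4 arrays limit the precision of every level. The named genes were the 9 members, family relatives and ligands; other lists were given by counts, with examples named after their values were seen, and a few listed genes are not reported here. The members and lists were chosen with earlier results of these data known. Alternatives were 3 other scalings, normexp with an offset of 50 on median signals (the mean was not used here), a looser flag, detection on 3 arrays, the brightest probe, outliers kept, no filter, each replicate left out and, added after seeing the data, spot position as a term and leaving out the outer 8 rows.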

Additional observations from a re-analysis of the deposited data

How the results depend on the processing

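Detection was recounted under 7 alternatives (detection on 3 arrays, outlier spots kept, the looser flag and each replicate left out), and the number of detected members was 7 in all but the looser flag, where Adgre1 made it 8; the counts of other regulators and macrophage markers were 23 to 24 and 20 to 22. The widest span of a detected member was 0.40 and became 1.21 with the looser flag, which adds Adgre1. Of the 5 member probes printed several times, 3 differed between arrays in scaled level. With normexp correction only 1 did, Lyz2 probe A_64_P025286, whose limma adjusted p stayed at or below 0.012 in all 15 settings. In each of these settings the arrays were scaled for brightness. The count was 2 with quantile normalization, and 4 with spot position as a term, where the limma adjusted p of Lyz2 probe A_44_P1154697 was 0.00886, a fit in which 67.9% of all such probes passed. Leaving out 1 replicate at a time gave 7 detected members, 3 differing probes, a median SD of 0.107 to 0.129 and a widest span of 0.29 to 0.40. Levels of all 7 members moved by over 1 SD when the reference probes changed (the percentile of all probes, the median, or the looser flag), which shifts every gene. No paired analysis was possible because there is 1 group. Signal over background limits Irf8, Adgre1 and Cebpa.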

Other observations

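Some replicate spots of the members lay apart from their partners in the same way on all arrays. Of 34 spots of the 5 probes printed several times, 3 lay in the outer 8 of the array's 384 rows, and each was the lowest spot of its probe on all 4 arrays. The spot of Lyz2 probe A_44_P1146256 in row 2 was lower than the mean of its partners by a mean of 0.44 on the log2 scale and was marked as an outlier on replicates 2, 3 and 4. The spot of Lyz2 probe A_64_P025286 in row 6 was lower by a mean of 0.63, and by 1.09 on replicate 2. The Aif1 spot in row 384 was lower by 0.40 to 0.56. Over the other probes printed several times, 485 spots in these outer rows had a median deviation of -0.0306 and 57.9% were below their partners, against 49.6% of 11269 spots elsewhere. Without the outer rows, a choice made after these values were seen, the largest difference between arrays for A_64_P025286 was 0.75 (limma adjusted p = 1.86e-11).

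Among the 704 probes printed 2 times, 1.99% had a gap of the same sign on all 4 arrays at least as wide as that of Aif1 probe A_44_P1087313, whose smallest gap was 0.40. In 14 series of gene and probe levels of the detected members, Dixon's ratio put no single array apart from the other 3.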
